A study of Mus musculus with 2 samples.

Results

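Neutrophils were taken from 2 libraries of leukocytes sorted for CD45, the surface protein that all leukocytes carry, from mouse tumours. A cell barcode (the tag of 1 droplet) was called a neutrophil when it held at least 10 UMIs (counted RNA molecules) of S100a8 and S100a9 together, at least 2 UMIs of Csf3r, Cxcr2 and Retnlg together, no Csf1r UMI, at most 1 UMI of Cd3d, Cd3e and Cd3g, and fewer than 5 UMIs of C1qa, C1qb and C1qc per 10000. Of 22044 kept barcodes, those with at least 200 genes and at most 10% mitochondrial UMIs, 97 passed, 72 of 12179 in the library labelled WT and 25 of 9865 in the library labelled cKO. The cells were thus chosen by the levels of these genes, which are given here as a description. All animals were C57BL/6. The library labelled WT came from tumours of wild-type mice. The library labelled cKO came from tumours of mice with the label Ythdf2 cKO, in which the gene for an m6A reader that promotes RNA decay is deleted conditionally. The sources used here do not name the tumour, the Cre line or the cells it acts in, nor the age, sex and number of the mice. Libraries were read from the 5′ end of transcripts. Each label has 1 library, so no difference has a replicate check, none was tested, and each describes these 2 libraries only.

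Neutrophils are short-lived granulocytes made in the bone marrow under the growth factor G-CSF, whose receptor is encoded by Csf3r. Their granule proteins are made in order during maturation in the marrow, so that cells that have left it hold little RNA for the early granules. They enter tissue along chemokine gradients read by Cxcr2, and in tumours they have been described both as restraining and as helping tumour growth.

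Values in brackets are exact 95% intervals (Poisson) for CPM (the usual scaling of a gene's UMIs to the total of the summed cells) and exact Clopper-Pearson intervals for shares and CPM ratios, all covering counting error only. The libraries held 14404 and 11398 barcodes and 128952491 and 121321782 UMIs, with medians of 4760 UMIs per barcode in WT and 7404 in cKO. They shared 43 barcode sequences, of which 1 belonged to a neutrophil, in the library labelled cKO. Neutrophil barcodes were shallow. They held from 662 through a median of 1752.5 to 51193 UMIs in WT, and from 1047 through 2766 to 16763 in cKO, against medians of 7478 and 11992 UMIs in barcodes gated as monocytes (Csf1r, and Ly6c2 or Ccr2, with no UMI of the 3 receptor genes).

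Ythdf2, the targeted gene, was read first against the labels. It held 5 UMIs in 3 of 72 neutrophils of the library labelled WT, or 24.99 CPM (8.11 to 58.3), and 15 UMIs in 10 of 25 neutrophils of the library labelled cKO, or 162 CPM (90.8 to 268). Ythdf2 (ENSMUSG00000040025, GRCm38 chromosome 4, 132184912 to 132212303, minus strand) was thus higher in the library labelled cKO, at a ratio of 6.49 (2.24 to 22.8). Leaving out 18 barcodes that held markers of other cells, described next, it held 2 and 9 UMIs (ratio 7.52, 1.56 to 71.5). Reads from the 5′ end can lie outside the deleted part, so this level does not check the deletion, and every direction below is one between the library labelled WT and the library labelled cKO.

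A few deep barcodes also held marker UMIs of other cell types, and these weigh heavily on sums. In all, 18 neutrophil barcodes (13 in WT, 5 in cKO) held at least 3 UMIs of the markers of another cell type, out of 11 lists. They held 50.7% of the neutrophil UMIs in WT and 36.1% in cKO. The deepest, a WT barcode with 51193 UMIs, held 25.6% of the WT sum, 709 UMIs of the melanocytic genes Pmel, Dct, Mlana, Tyrp1 and Tyr, 82 of the macrophage list and 0.270% S100a8 and S100a9. Another held 1895 UMIs of the erythroid list, 1 held 64 of the monocyte list, 2 held 43 and 34 of the plasmacytoid dendritic cell list, and 1 held 21 of the B cell list. The deepest cKO barcode, with 16763 UMIs and 18.1% of the cKO sum, held 20 UMIs of Ncr1, Klrb1c, Klrk1 and Eomes, the NK list, and the next held 9. Markers of other granulocytes were few: basophil and mast cell genes summed to 0 and 1 UMIs, and the 7 eosinophil genes to 5 and 4. Among those 7, the granule genes Prg2, Epx and Ear6 had none in either library. The list counts and many single genes are therefore given for all 97 barcodes and for the 79 without these 18 (59 WT and 20 cKO, with 98689 and 59063 UMIs), a choice made after seeing the data. A value with no second value beside it is over all 97 barcodes and was not shown to hold without the 18.

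**Figure D1:**
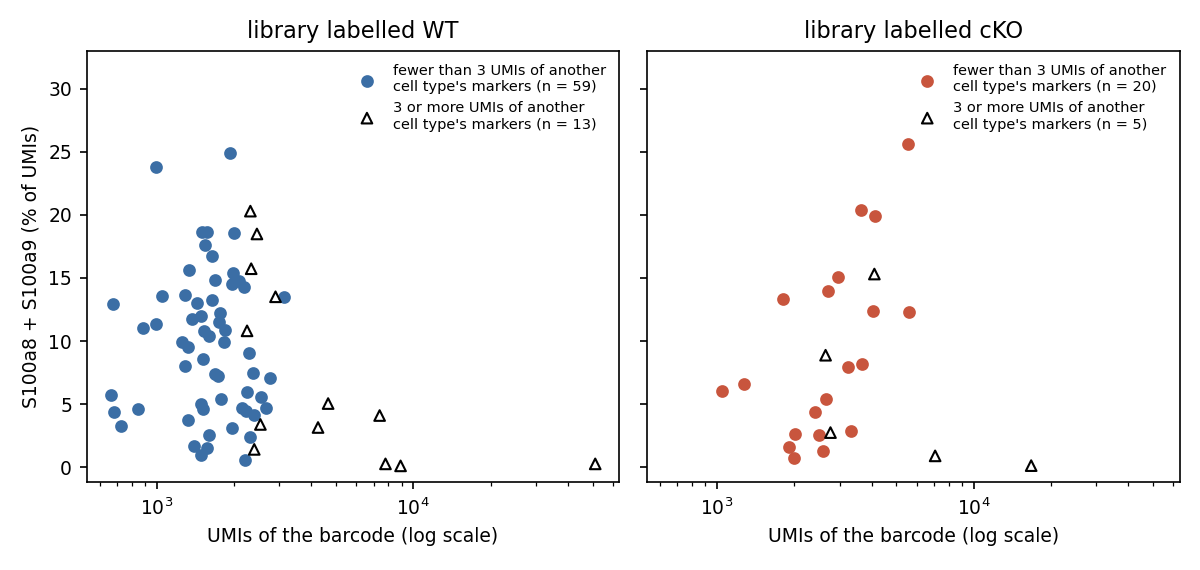
Each point is 1 neutrophil barcode, with its UMIs on a log axis and the percent of them from S100a8 and S100a9 on the other, for the library labelled WT (left) and the library labelled cKO (right). Open triangles mark the 13 and 5 barcodes with at least 3 marker UMIs of another cell type, and the barcodes of over 10000 UMIs are triangles, at the bottom of the plot.

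The criteria did not remove alike in both libraries. Requiring S100a8 and S100a9 left 320 WT and 111 cKO barcodes, the receptor genes 269 and 95, no Csf1r 133 and 29, few Cd3 UMIs 121 and 27, and the C1q limit 72 and 25. The C1q limit alone removed 49 WT barcodes and 2 cKO barcodes. Of the 49, 28 held a single C1q UMI, and 42 held at most 2000 UMIs, where a single C1q UMI is past the limit. They held a median of 100 S100a8 and S100a9 UMIs and G0s2, a neutrophil gene the rule did not use, was found in 61.2% of them, against 54.2% of the WT neutrophils. The Csf1r limit alone removed 38 WT and 34 cKO barcodes, with medians of 7476 and 16307 UMIs, and the monocyte gene Ly6c2 was found in 63.2% and 79.4% of these, against 19.4% and 28.0% of the neutrophils. Just inside the S100 limit, 3 WT barcodes and 1 cKO barcode held 10 to 19 UMIs, and just outside it 4 WT barcodes and no cKO barcode held 5 to 9.

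**Figure D2:**
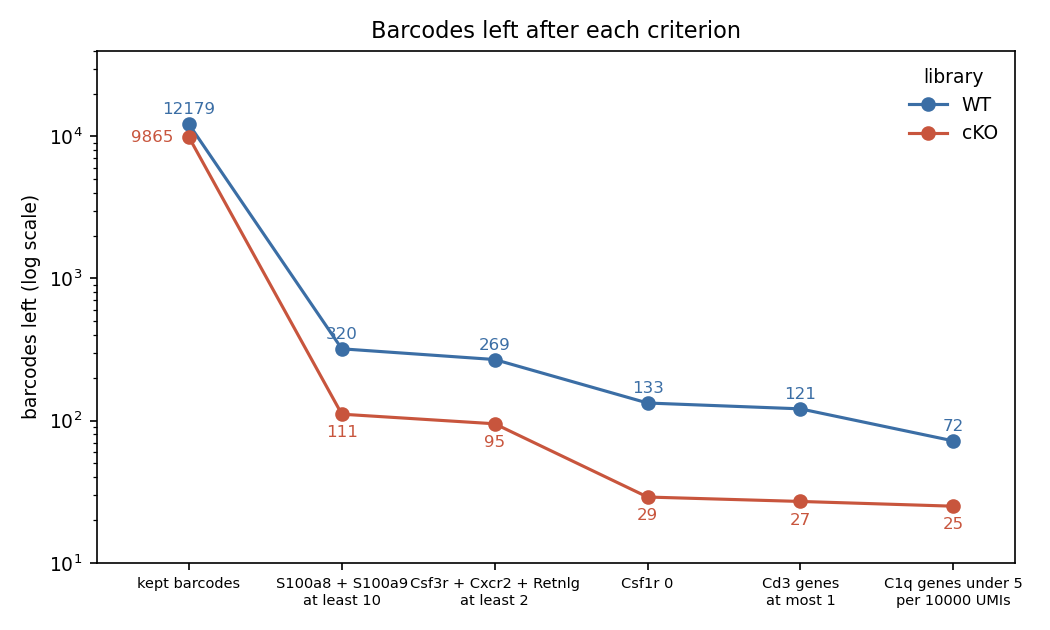
Barcodes left after each criterion, on a log axis, applied in the order shown to the library labelled WT (blue) and the library labelled cKO (red). The Csf1r step takes away more than the other steps after the first in the library labelled cKO, from 95 to 29, and the C1q step takes away more in WT, from 121 to 72, than in cKO, from 27 to 25.

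Neutrophils made up 0.591% (0.463 to 0.744) of kept barcodes in WT and 0.253% (0.164 to 0.374) in cKO. The share was 2.33 times (1.46 to 3.84) as large in WT, and 2.39 times (1.42 to 4.19) without the 18 barcodes, at 0.484% and 0.203%. With the C1q limit read as 5 raw UMIs, a reading added after seeing the data, 118 and 27 barcodes passed and the share was 3.54 times (2.31 to 5.596) as large in WT. Over the other settings run, the ratio lay between 2.09 and 2.77. None of them dropped the Csf1r limit, without which 110 WT and 59 cKO barcodes passed. The libraries also differed in depth, as given above, and its part in the share was not tested.

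The genes by which the barcodes were chosen mark this lineage, and their levels describe the selection. S100a9 (ENSMUSG00000056071, GRCm38 chromosome 3, 90692632 to 90695721, minus strand) and S100a8 (ENSMUSG00000056054, chromosome 3, 90668978 to 90670035, plus strand), which pair as calprotectin, a calcium-binding protein of the neutrophil cytosol, held 37957 and 23752 CPM in WT and 49611 and 31584 CPM in cKO. In all other kept barcodes of the same libraries S100a9 stood at 149 and 91.7 CPM. Of the cKO neutrophil UMIs, 864 of 4585 for S100a9 and 551 of 2919 for S100a8 lay in 1 barcode. The median share of these genes per barcode, given below, was larger in WT. Retnlg, a secreted resistin-like protein, held 2094 and 4642 CPM, and 193 of its 429 cKO UMIs lay in 1 barcode. Csf3r held 1524 and 1775 CPM, and Cxcr2 549.8 and 1136 CPM.

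Genes the rule did not use ranked beside them when the neutrophils were set against all other kept barcodes. Hdc, which makes histamine, held 1275 CPM in WT and 1190.2 CPM in cKO, against 12.6 and 13.3 CPM in the rest. Mmp9, the gelatinase of the late granules, held 675 and 866 CPM against 4.16 and 3.65, and Lcn2, an iron-scavenging granule protein, held 595 and 638 CPM against 3.87 and 5.67. Also among the 20 leading genes were Trem1, an activating receptor (475 and 606 CPM), Il1r2, a decoy receptor for interleukin-1 (735 and 1028 CPM), Slpi, a protease inhibitor (1469 and 2099 CPM), Csf1, the growth factor of macrophages (365 and 606 CPM), Wfdc21, Asprv1, Lrg1, Stfa2l1 and Slc40a1. The rule chose the cells by genes that travel with these, so the ranking is a description with no test.

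**Figure D3:**
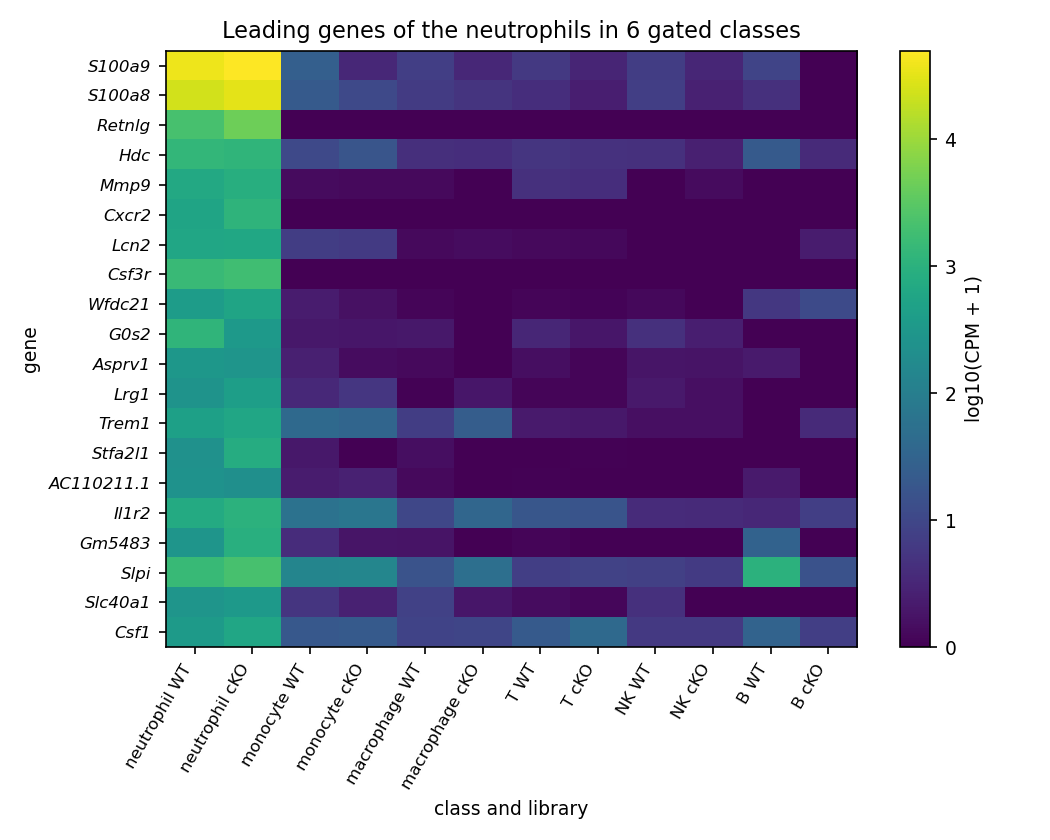
Color gives log10(CPM + 1) of the 20 leading neutrophil genes in neutrophils and in 5 gated classes of each library. The first 2 columns are bright in every row, and Retnlg, Cxcr2 and Csf3r are at 0 in the other classes because those gates required it. Slpi is also bright in WT B cells.

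The primary granule genes, the secondary granule genes Camp, Ltf and Ngp, and Ly6g were nearly absent, and genes listed here as late granule genes were well seen. None of the 7 primary granule genes reached 20 UMIs over both libraries: Mpo, the myeloperoxidase of the first granules, had no UMI, Elane had 1 and 0, and Prtn3 had 4 and 0. Camp had 1 and 0 UMIs, Ltf 0 and 1, Ngp 2 and 1, and Ly6g, the surface marker used to sort neutrophils, 3 and 7. The other secondary granule genes were not all low: 7 of the 13 listed reached 20 UMIs, with Lcn2 at 119 and 59 UMIs and Lyz2, which monocytes and macrophages also express, at 326 and 49. Genes listed as late were well seen, with Mmp8 at 220 and 184 CPM, Adam8 at 275 and 422 CPM, Hp, the haptoglobin gene, at 619.8 and 1049.6 CPM, and Pglyrp1 at 415 and 563 CPM.

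The neutrophils varied widely among themselves. S100a8 and S100a9 together took from 0.112% through a median of 9.30% to 24.9% of a barcode's UMIs in WT, and from 0.131% through 6.59% to 25.6% in cKO. The ranges overlapped over nearly their whole length. In 8 WT and 5 cKO barcodes the share was under 2%, and 4 and 3 of these remained without the 18 barcodes. Cxcl2, a ligand of Cxcr2, was among the most abundant RNAs and was found in 63 of 72 WT and in all 25 cKO neutrophils. Il1b, encoding interleukin-1 beta, was found in 71 of 72 and in all 25. The chemokine genes Ccl3 and Ccl4 were patchy, found in 34 and 32 WT and in 16 and 15 cKO neutrophils, and followed each other with Spearman's rho of 0.49 over 72 and 0.72 over 25 barcodes. S100a8 and S100a9 together followed Retnlg at 0.69 and 0.49, and at 0.62 and 0.38 without the 18. They ran against Ccl3 and Ccl4 at -0.28 and -0.31, and at -0.31 and -0.22 without the 18. The rule chose barcodes by S100a8, S100a9 and Retnlg, so values with these genes also depend on the selection. Barcodes of 1 library share its depth and free RNA, so these are descriptions.

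Between the libraries, most tested interferon gamma response genes and several genes that load peptides on MHC class I were higher in the library labelled cKO, G0s2 and Lyz2 were lower, and most genes of the late granules differed by less than 1.5-fold. Of 2157 genes with at least 20 UMIs over both libraries, 444 (20.6%) were at least 1.5-fold higher in cKO and 551 (25.5%) at least 1.5-fold lower, on a log2 scale with 10 CPM added to each level. Without the 18 barcodes 1157 genes were left, with 159 (13.7%) higher and 205 (17.7%) lower, and each list below is read against these shares. The median of all genes lay at 0.01, and at -0.05 without the 18.

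Interferon gamma response genes had the highest median over all 97 barcodes among the 24 lists with a tested gene. Of 20 listed genes 9 held enough UMIs, 8 of them were higher in cKO and none lower, and their median log2 difference was 1.74. Without the 18 barcodes 6 were left, with 4 higher, none lower and a median of 0.99, below the 1.03 of the 2 MHC class II genes tested there. Irf1, the transcription factor that interferon gamma induces (ENSMUSG00000018899, chromosome 11, 53770014 to 53778374, plus strand), held 34 UMIs in 17 of 72 WT neutrophils and 71 in 17 of 25 cKO neutrophils. Its levels were 169.9 CPM (118 to 237) and 768 CPM (600.0 to 969), a ratio of 4.52 (2.96 to 7.02), and 3.95 (2.36 to 6.83) without the 18. The highest barcodes held 6 of the WT and 16 of the cKO UMIs, and 4 of 22 and 16 of 52 without the 18.

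Other members of that list were measured on few UMIs. Irgm1, a GTPase which acts on vacuoles that hold microbes, held 10 and 24 UMIs, a ratio of 5.20 (2.39 to 12.2), with 12 of the 24 in 1 barcode, and 7.94 (2.64 to 32.1) without the 18. Gbp2, a guanylate-binding protein, held 13 and 24 UMIs (ratio 3.997, 1.96 to 8.55), and its ratio was 2.58 (1.14 to 6.10) without the 18. Igtp, another GTPase of the Irgm kind, held 7 and 13 UMIs (ratio 4.02, 1.49 to 11.9), and 5 and 9 without the 18 (ratio 3.01, 0.905 to 11.4). Ifngr1, a chain of the interferon gamma receptor, held 16 and 38 UMIs, but 19 of the 38 lay in 1 barcode. Leaving out the 18 barcodes, it held 11 of 98689 UMIs in WT and 11 of 59063 in cKO. Its level was then counted as at least 1.5-fold higher in cKO, on equal UMI counts and a smaller cKO total. Irf8 was the exception, at 50 and 17 UMIs, and 0 and 1 of these were left without the 18 barcodes.

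Type I interferon response genes differed less. Of 24 listed genes 17 were tested, 7 higher and 2 lower, with a median of 0.50, and without the 18 barcodes 3 of 12 were higher and 1 lower, with a median of 0.42. Ifit1, which binds foreign RNA, held 25 UMIs in 13 WT neutrophils and 75 in 11 cKO neutrophils, a ratio of 6.49 (4.08 to 10.7), but 45 of the 75 lay in 1 barcode. Rsad2, an antiviral enzyme, held 106 and 115 UMIs (ratio 2.35, 1.79 to 3.09), and the ratio was 1.42 (1.01 to 1.99) without the 18. Isg15 held 100.0 and 108 CPM, Slfn1 565 and 563 CPM and Isg20 155 and 86.6 CPM, so the members did not share a direction.

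The bases before the starts of 3 of these genes are shown because interferon genes share motifs there. Searched on both strands, and allowed to overlap, were the core of the element read by interferon regulatory factors (ISRE), which is GAAA repeated with a gap of a pair of bases, and TTCNNNGAA, the gamma-activated element (GAS). In the 250 bases before the RefSeq start, 10 of 15 matched interferon gamma genes (66.7%) held the first and 8 (53.3%) the second, and 9 of 20 matched type I genes (45.0%) held the first. Of 27025 genes in all, 3.46% held the first and 8.13% the second. A match is a description of letters, not a binding site. The windows are from RefSeq on GRCm38.p6, plus strand, with motif matches in capitals.
Irf1, chr11:53769764-53770013: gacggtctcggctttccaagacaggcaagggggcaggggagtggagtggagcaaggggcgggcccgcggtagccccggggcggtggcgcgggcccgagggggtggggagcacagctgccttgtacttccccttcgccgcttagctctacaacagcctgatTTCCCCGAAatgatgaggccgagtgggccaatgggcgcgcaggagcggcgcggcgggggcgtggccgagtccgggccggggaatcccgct
Ifit1, chr19:34640639-34640870: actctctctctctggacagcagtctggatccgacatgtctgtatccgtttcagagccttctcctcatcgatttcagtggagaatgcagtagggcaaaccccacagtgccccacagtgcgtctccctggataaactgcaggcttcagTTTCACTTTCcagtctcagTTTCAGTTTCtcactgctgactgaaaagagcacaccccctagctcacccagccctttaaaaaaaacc
Igtp, chr11:58199306-58199555: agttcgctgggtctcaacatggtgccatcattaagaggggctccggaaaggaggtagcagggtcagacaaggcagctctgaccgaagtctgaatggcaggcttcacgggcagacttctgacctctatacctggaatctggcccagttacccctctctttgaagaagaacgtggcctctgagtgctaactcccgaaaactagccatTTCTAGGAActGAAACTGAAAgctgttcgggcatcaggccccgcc
Irf1 held 1 GAS match, 90 bases before its start, Ifit1 held 2 ISRE matches, and Igtp held 1 ISRE and 1 GAS match, 34 and 45 bases before its start. A gene with several RefSeq windows was counted if any of them held the motif, and another Irf1 window held neither. Among windows not shown, those of Gbp2, Irgm1 and Rsad2 held an ISRE match. Those of Ifngr1, Cd274, Tap1, Tapbp and Casp4 held neither motif. The windows not shown were not alike, as RefSeq and annotated gene starts differ. That of Tapbp ended 3579 bases past the annotated gene start, and that of Irgm1 lay wholly past it. The Gbp2 match also lay past it. The Ifit1 window is cut where the annotated gene begins. Among the MHC class I genes 2 of 14 (14.3%) held an ISRE match, and among the NF-kB genes 0 of 11.

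Several genes that load peptides on MHC class I, the molecule that shows them to CD8 T cells, were also higher in cKO. Of 15 listed genes 11 were tested, 8 were higher and none lower, with a median of 0.64, and without the 18 barcodes 5 of 8 were higher, with a median of 0.61. Without the barcodes over 10000 UMIs, however, 3 of 11 were higher and 1 lower, with a median of 0.19, beside 252 of 1591 genes (15.8%) higher and 286 (18.0%) lower over all genes. The peptide transporter gene Tap1 held 19 UMIs in 14 and 26 in 11 neutrophils (ratio 2.96, 1.58 to 5.66), and 3.34 (1.43 to 8.44) without the 18. Tapbp, which bridges the transporter and MHC class I, held 24 and 37 UMIs (ratio 3.34, 1.94 to 5.83), and the immunoproteasome gene Psmb9 held 18 and 21 UMIs (ratio 2.53, 1.28 to 5.03). The MHC genes themselves did not keep a difference. H2-K1 held 910 and 1569 CPM over all barcodes, but 993 and 914 CPM without the 18, H2-D1 1919 and 2997 but 2888 and 2861 CPM, and B2m 2019 and 3051 but 2685 and 2421 CPM.

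Monocyte-gated barcodes of the same libraries, 935 and 949, differed the same way in these lists. The same members had a median log2 difference of 0.74 there for interferon gamma, 0.76 for type I and 0.23 for MHC class I genes, against 1.74, 0.50 and 0.64 in neutrophils. In macrophage-gated barcodes (C1q genes), 872 and 176, these medians were 1.27, 1.66 and 0.86, so those of type I and MHC class I genes were above the neutrophil ones. Irf1 stood at 188 and 304 CPM in the monocyte gate and Ifit1 at 71.6 and 206 CPM. Neutrophils of the library labelled cKO also held more UMIs per barcode. With every barcode thinned to 1344 UMIs, the neutrophil medians were 0.75, 0.46 and 0.39, with 6 of 9, 7 of 17 and 3 of 11 genes higher and 1, 3 and 0 lower. Over all genes at that depth, 498 of 2157 were higher and 588 lower. Single genes drew closer at that depth: Gbp2 was found in 12.3% of WT and 13.04% of cKO neutrophils, Irgm1 in 3.5% and 13.04%, Tap1 in 17.5% and 21.7%, and Tapbp in 14.0% and 34.8%. The part of depth in these differences beyond this was not tested.

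**Figure D4:**
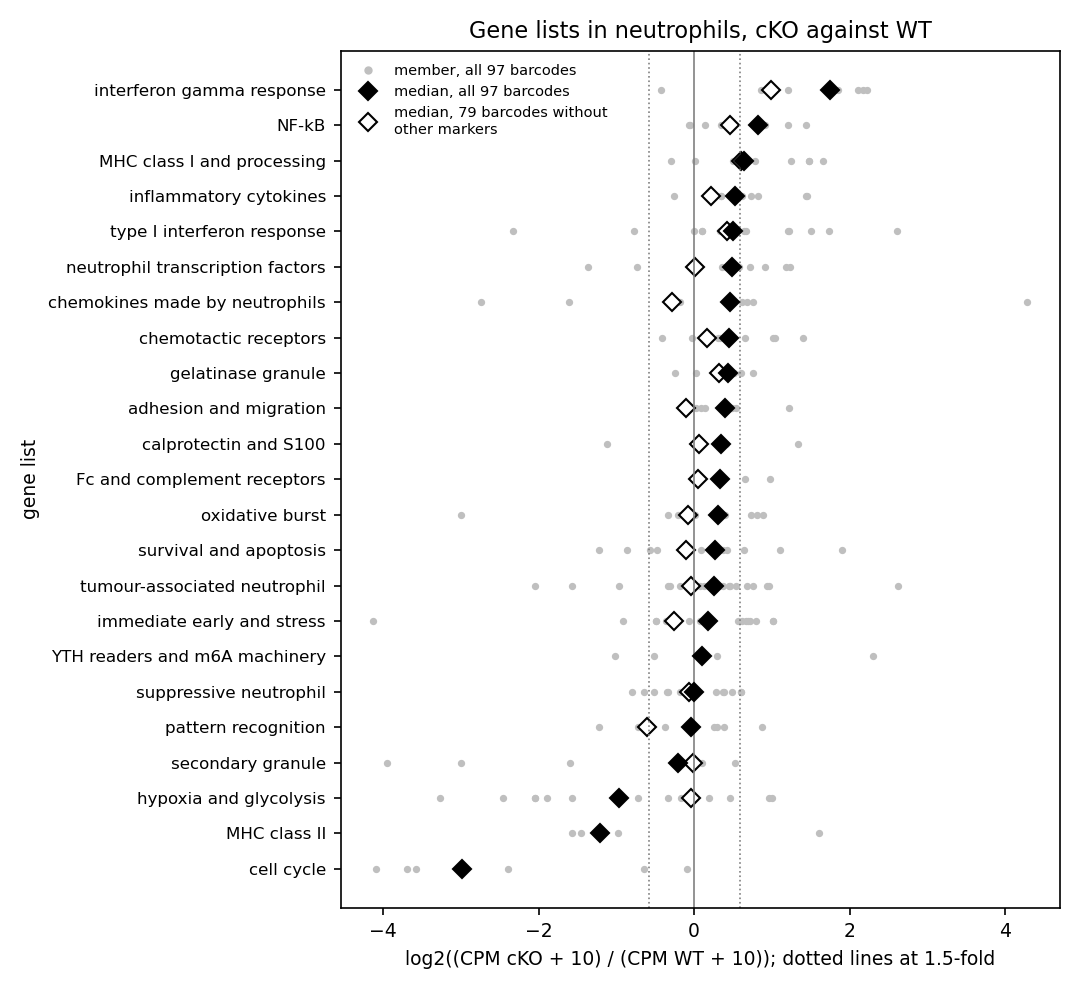
Log2 difference of CPM, cKO against WT with 10 CPM added, for the tested members of each gene list (grey), their median over all 97 barcodes (filled) and over the 79 without other markers (open). Interferon gamma genes stand at the top with medians of 1.74 and 0.99, and the hypoxia and glycolysis median moves from -0.97 to -0.04 when the 18 barcodes are left out. The m6A, MHC class II and cell cycle lists, with at most 2 genes tested without the 18, have no open symbol.

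Genes of the NF-kB pathway, which carries inflammatory signals, and its feedback inhibitors leaned the same way. Of 14 listed genes 9 were tested, 5 were higher and none lower, with a median of 0.83, and without the 18 barcodes 2 of 6 were higher, with a median of 0.46. Nfkbia, which holds NF-kB in the cytosol, was found in 62 WT and in all 25 cKO neutrophils, at 3459 CPM (3206 to 3726) and 6135 CPM (5640.4 to 6662), a ratio of 1.77 (1.58 to 1.98), and 1.44 (1.26 to 1.64) without the 18. Tnfaip3, encoding an enzyme that shuts the pathway off, held 69 and 88 UMIs, a ratio of 2.76 (1.99 to 3.84), and 2.46 (1.70 to 3.58) without the 18. Nfkbiz held 965 and 1829 CPM, and 1499.7 and 1964 CPM without the 18. The same members had a median of 0.16 in monocyte-gated and of 0.75 in macrophage-gated barcodes.

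Cytokine genes were mixed. Tnf, encoding tumour necrosis factor, held 65 UMIs in 27 WT neutrophils and 84 in 18 cKO neutrophils, a ratio of 2.80 (1.9998 to 3.93), and 2.13 (1.38 to 3.31) without the 18. Il1b went the other way, at 5718 CPM (5391 to 6059) and 4772 CPM (4337 to 5239), a ratio of 0.835 (0.746 to 0.932), and 0.766 (0.677 to 0.865) without the 18. Il1rn, the natural blocker of interleukin-1, held 719.7 and 919.7 CPM, Osm 329.9 and 379 CPM, and Ptgs2, the prostaglandin-making enzyme also called cyclooxygenase, 1010 and 1407 CPM. Of 12 tested cytokine genes 5 were higher and none lower, and without the 18 barcodes 2 were higher.

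Chemokine genes gave no common direction. Cxcl2 held 11941 CPM (11467 to 12430) in WT and 16425 CPM (15609 to 17273) in cKO, but 19141 and 15712 CPM without the 18 barcodes, so its order turned. Ccl3 turned as well, from 2439 and 3917 CPM to 3334 and 2709 CPM. Ccl4 kept its direction, at 2519 and 4263 CPM and then 1864 and 3014 CPM. Ccl6 was at 1199.6 and 941 CPM. Cxcl3 held 84 UMIs in 8 WT neutrophils, 44 of them in 1 barcode, and 5 UMIs in 2 cKO neutrophils. Ccl5, a chemokine of NK and T cells, held 6 and 71 UMIs, and 56 of the 71 lay in 1 barcode, with 4 and 4 left without the 18.

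Among receptors for attractants and growth factors 4 of 11 were higher in cKO and none lower, and 1 of 10 was higher and 1 lower without the 18 barcodes. The rule used Cxcr2 and Csf3r, and leaving them out 3 of 9 were higher and none lower, and 1 of 8 was higher and 1 lower without the 18. Cxcr2, counted as higher above, was found in 61.1% and 92.0% of them, and thinned to 1344 UMIs in 59.6% (45.8 to 72.4) and 73.9% (51.6 to 89.8). Ccrl2, which binds the attractant chemerin at the surface, held 118 UMIs in 36 neutrophils and 145 in 21, a ratio of 2.66 (2.07 to 3.42), and 1.85 (1.38 to 2.48) without the 18. Cxcr4, which holds cells in the marrow, held 349.9 and 714 CPM but 578 and 694 CPM without the 18. Ccr1 held 1005 and 1374 CPM, C5ar1, the receptor of a complement fragment, 359.9 and 573 CPM, and Csf3r differed little, with a ratio of 1.16 (0.957 to 1.41). Csf2rb, the shared chain of the GM-CSF receptor, was at 319.9 and 238 CPM, a ratio of 0.744 (0.436 to 1.22), and was the 1 lower without the 18, at 0.522 (0.272 to 0.949).

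Granule genes were mostly within 1.5-fold. Of 7 tested secondary granule genes none was higher and 3 were lower (Chil3, Cybb and Lyz2). Of 7 genes listed as late granule genes 2 were higher (Adam8 and Hp) and none lower. All 29 Chil3 UMIs lay in 1 WT barcode. Lcn2 had a ratio of 1.07 (0.772 to 1.48), Mmp9 1.28 (0.960 to 1.70) and Mmp8 0.836 (0.448 to 1.49), or 1.04 (0.509 to 2.07) without the 18. Hp was higher, with a ratio of 1.69 (1.28 to 2.23), and 1.40 (1.02 to 1.91) without the 18. Lyz2 (ENSMUSG00000069516, chromosome 10, 117277331 to 117282321, minus strand), the lysozyme of myeloid cells, was lower in cKO. It held 326 UMIs in 52 WT neutrophils and 49 UMIs in 15 cKO neutrophils, at 1629 and 530.2 CPM, a ratio of 0.325 (0.236 to 0.440). Of the 326, 149 lay in 1 barcode, and without the 18 the ratio was 0.571 (0.389 to 0.824). After thinning, 63.2% (49.3 to 75.6) and 39.1% (19.7 to 61.5) of neutrophils had a Lyz2 UMI, and so had 19.3% and 5.9% of T cell-gated barcodes, which should lack it. Lyz2 also stood at 7590.4 and 3117 CPM in monocyte-gated barcodes, and the part of free RNA in its difference was not tested.

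In the oxidative burst, the release of reactive oxygen by an NADPH oxidase, the subunit genes Ncf1 and Ncf4 held 289.9 and 292 CPM and 135 and 173 CPM. Rac2, the small GTPase of that oxidase, held 515 and 963 CPM, a ratio of 1.87 (1.39 to 2.51), and 2.05 (1.43 to 2.96) without the 18, and was found after thinning in 54.4% and 82.6% of neutrophils, against 58.4% and 60.02% of T cell-gated barcodes. Cybb, the catalytic subunit, held 66 UMIs in 8 WT and 3 UMIs in 2 cKO neutrophils, with 5 and 2 left without the 18 barcodes.

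G0s2, which restrains the breakdown of stored fat and is a marker gene of neutrophils, was lower in cKO. G0s2 (ENSMUSG00000009633, chromosome 1, 193272161 to 193273217, minus strand) held 234 UMIs in 39 of 72 WT neutrophils and 32 UMIs in 9 of 25 cKO neutrophils. Its levels were 1169.6 CPM (1025 to 1329) and 346 CPM (237 to 489), a ratio of 0.296 (0.198 to 0.430). The difference was as large without the 18 barcodes, at 176 and 30 UMIs and a ratio of 0.285 (0.187 to 0.421). After thinning, 52.6% (39.0 to 66.0) and 21.7% (7.5 to 43.7) of neutrophils had a G0s2 UMI, against 0.3% and 0.2% of T cell-gated barcodes.

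Survival genes differed in both directions, with 3 of 11 higher and 2 lower, and with 2 of 8 higher and 3 lower without the 18 barcodes. Mcl1, which keeps neutrophils alive, held 1899 and 2543 CPM, and 2817 and 2912 CPM without the 18. Casp4, an inflammatory caspase that senses bacterial lipopolysaccharide, was higher, with 13 and 25 UMIs (ratio 4.16, 2.05 to 8.86), and 11 and 23 without the 18. Bcl2l11, a death-promoting gene, held 110.0 and 249 CPM, and Gadd45b 1065 and 714 CPM. Nfil3, a transcription factor, held 31 UMIs in 16 WT and 5 UMIs in 4 cKO neutrophils, a ratio of 0.349 (0.106 to 0.906).

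Genes of long-lived tumour neutrophils were near the background, with 5 of 20 higher and 3 lower, and with 2 of 19 higher and 1 lower without the 18 barcodes. Spp1, the secreted osteopontin, held 56 UMIs in 16 WT neutrophils and 164 in 8 cKO neutrophils, 77 of them in 1 barcode. Cd274, encoding a ligand that restrains T cells, held 169.9 and 335 CPM and then 233 and 288 CPM, and Vegfa, the vessel growth factor, 28 and 26 UMIs and then 12 and 9. Siglecf, a marker of such cells in lung tumours, had 1 UMI in WT and 4 in cKO. Of 13 tested genes of suppressive neutrophils 2 were higher and 2 lower, and without the 18 barcodes 4 of 12 were lower and none higher. Among them Arg2 held 175 and 108 CPM, Clec4d 1065 and 1298 CPM, and Wfdc17 1199.6 and 833 CPM, although Wfdc17 was found after thinning in 36.8% of WT and 65.2% of cKO neutrophils, so its share and its level ran in opposite orders.

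Sensors of microbes were near the background over all barcodes, with 1 of 10 higher and 3 lower, and 1 higher and 5 lower without the 18. Tlr2 held 38 and 33 UMIs (ratio 1.88, 1.14 to 3.08, and 2.28, 1.27 to 4.15, without the 18), whereas Tlr13, a sensor of bacterial ribosomal RNA, held 28 and 5 UMIs (ratio 0.387, 0.117 to 1.01) and Pira2 62 and 17 UMIs (ratio 0.594, 0.325 to 1.03). Among Fc receptors Fcgr3 held 415 and 411 CPM and Fcgr4 105 and 216 CPM. Early response genes, which cell dissociation also induces, were higher for 7 of 17 and lower for 2, and for 1 and 4 without the 18. Zfp36, an RNA-decay factor, held 1299.5 and 2629 CPM, a ratio of 2.02 (1.69 to 2.42), and 1.58 (1.27 to 1.96) without the 18. Atf3 held 559.8 and 292 CPM, and Hspa1a 33 UMIs in 5 WT neutrophils, 29 of them in 1 barcode, and none in cKO.

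Leaving out the 18 barcodes moved further lists, beside the chemokine, receptor and early response genes given above. Glycolysis and hypoxia genes were lower in cKO for 10 of 17 and higher for 2, with a median of -0.97, but lower for 3 of 15 and higher for none, with a median of -0.04, without the 18. Gapdh, a glycolytic enzyme, held 764 WT UMIs, 641 of them in 1 barcode, and was at 892 and 1219 CPM without the 18. Of 6 tested cell cycle genes 5 were lower, and 1 gene, Hmgb2, was left without the 18, at a ratio of 0.890 (0.662 to 1.19). MHC class II genes were lower for 3 of 4, and without the 18 H2-Aa held 9 and 4 UMIs, H2-Ab1 12 and 5 and Cd74 26 and 13, too few to order. H2-Eb1 was the exception, with 20 and 30 UMIs over all barcodes and 6 and 20 without the 18.

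Genes of at least 50 CPM in a library were ranked by size, leaving out haemoglobin genes, genes of the rule and others given under processing. Among the genes left, the 12 largest differences on each side mostly lay in single barcodes. On the lower side were Dct, Pmel, Ptgds, Chchd10, Tyrp1, Syt4, Gpnmb, Slc24a5, Mgll, Scd2, Phgdh and Mlana. Dct held 318 WT UMIs, 311 in 1 barcode, and none in cKO, so it was at least 49.0-fold lower against a floor of 3 counts per library. On the higher side were Ctla2a, Ms4a4b, AW112010, Txk, Gimap4, Gimap6 and Rgs1, which lymphocytes are known to express, with Commd6, Inhba, Eif2ak2, Spp1 and Ifit1. Ctla2a held no UMI in WT and 50 in cKO, 33 in 1 barcode. Its cKO level was 36.1 times a floor of 3 counts in WT, and the interval of its ratio began at 28.3. It held 0 and 1 UMIs without the 18 barcodes.

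The same ranking without the 18 barcodes named, on the higher side, Commd6, Inhba, Spp1, Irgm1, Ccni, Ifit1, Irf1, Casp4, Aldh2, Tap1, Cd69 and Zdhhc20. Commd6 held 4 and 34 UMIs, 33 of them in 1 barcode, and Inhba, a chain of activin, 4 and 24, 19 of them in 1 barcode. Ccni, a cyclin-like protein, was spread over more, with 4 UMIs in 4 WT and 17 in 9 cKO neutrophils. On the lower side were Hspa1a, Cxcl3, Ncl, Thbs1, Tagln2, Atrx, Acsl1, Tma7, Rp9, Nfil3, Dnajb9 and G0s2. Thbs1, encoding the matrix protein thrombospondin, held 98 UMIs in 12 WT and 12 UMIs in 4 cKO neutrophils. Tagln2, an actin-binding protein, held 27 UMIs in 19 and 3 UMIs in 2, and Acsl1, which activates fatty acids, 18 UMIs in 9 and 2 UMIs in 2.

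**Figure D5:**
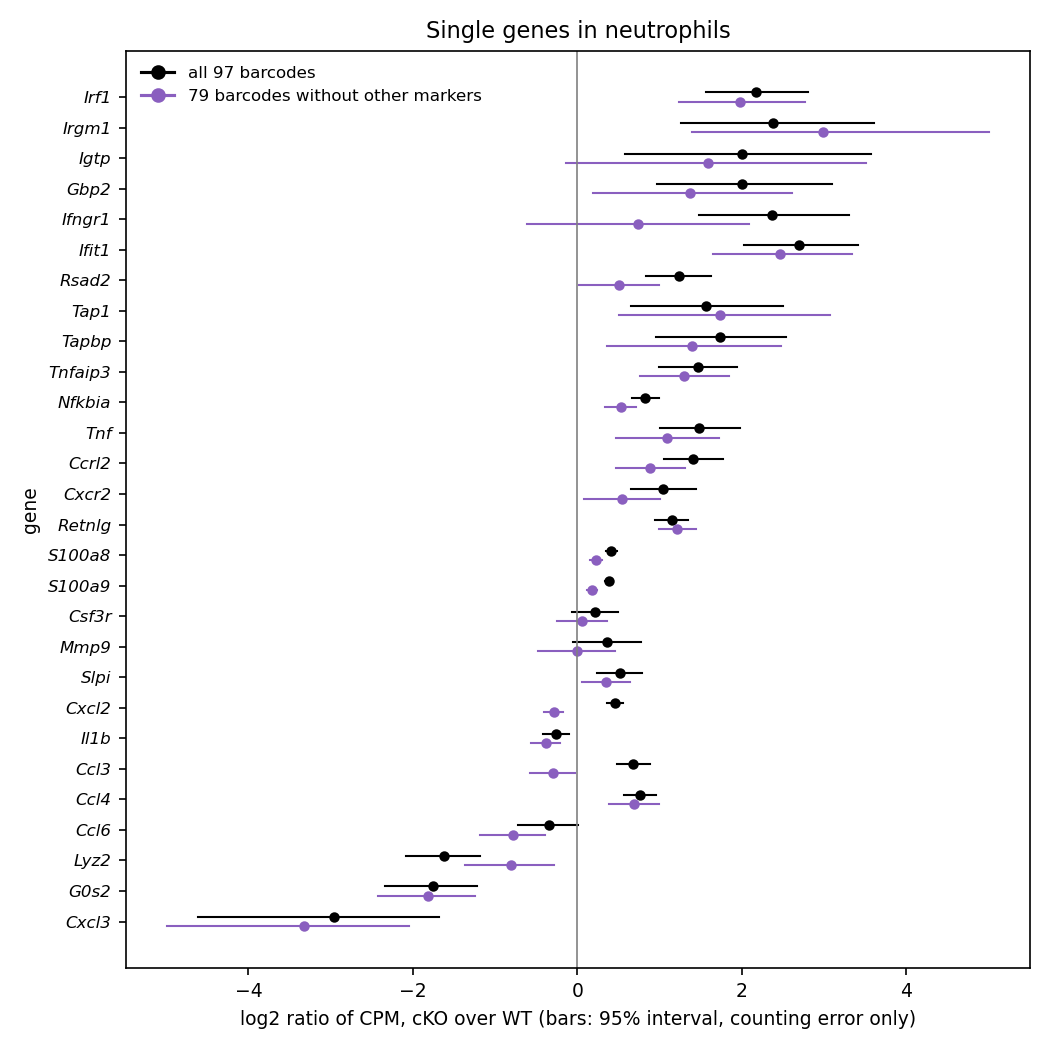
Log2 ratio of CPM, cKO over WT, with its 95% interval for counting error, for single genes over all 97 barcodes (black) and over the 79 without other markers (purple). The points of Irf1, Ifit1, Tap1, Tapbp and Tnfaip3 lie right of 0 with both, G0s2, Lyz2 and Cxcl3 lie left of 0 with both, and Cxcl2 and Ccl3 change side.

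Other genes of the m6A pathway were thinly measured. Of 16 listed genes 5 held 20 UMIs over both libraries, 1 of them, Ythdf2, higher and 1, Hnrnpa2b1, lower. Ythdc1, the nuclear reader, held 38 and 12 UMIs (ratio 0.684, 0.325 to 1.34), Ythdf3 14 and 7, and Alkbh5, an eraser, 19 and 11. Hnrnpa2b1 held 94 and 21 UMIs, 43 of the 94 in 1 barcode, and had a ratio of 0.895 (0.444 to 1.73) without the 18. Without the 18, 2 of the listed genes were tested, and Ythdc1 was the 1 counted as lower, with 24 and 7 UMIs and a ratio of 0.487 (0.177 to 1.17). Mettl3, the writer, had 1 UMI in WT and none in cKO, and Mettl14 had none.

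Shares of neutrophils with a UMI were compared after thinning, with 57 WT and 23 cKO barcodes deep enough and 15 and 2 left out. Irf1 was found in 19.3% (10.0 to 31.9) and 43.5% (23.2 to 65.5), against 25.7% and 33.7% of T cell-gated and 13.3% and 30.2% of B cell-gated barcodes (median depths of 3863 and 6747, and 2371.5 and 3533 UMIs). Unthinned, the neutrophil shares were 23.6% and 68.0%. Ccrl2 was found in 49.1% (35.6 to 62.7) and 73.9% (51.6 to 89.8), against 6.3% in T cells of either library. Tnf was found in 33.3% and 47.8%, and Stfa2l1, a cystatin-like inhibitor, in 15.8% and 34.8%. Intervals of the 2 libraries overlapped for each of these genes. Ythdf2 was found in 3.5% (0.4 to 12.1) and 13.04% (2.8 to 33.6), against 7.1% and 7.5% of T cell-gated barcodes. Apoe, a macrophage gene, was found in 33.3% of WT neutrophils and in 0 of 23 cKO neutrophils (upper bound 14.8%), against 17.2% and 3.0% of T cell-gated barcodes.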

How the data were processed

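Raw UMI counts per gene and barcode were used as deposited, 1 matrix per library. Per the submitters' processing notes Cell Ranger 5.0.1, Seurat 4.0.4 and mm10 were used, while the matrix header names cellranger 5.0.0; neither gives the annotation or the counting options. Counts of 31053 genes were read with python 3.11.15, numpy 2.4.6, scipy 1.17.1 and pandas 2.3.3, and figures drawn with matplotlib 3.10.9. Counts of the chosen barcodes were summed per library. No doublets were removed; an alternative removed the highest Scrublet scores (scanpy 1.11.5), 1187 and 779 barcodes, 2 and 2 of them neutrophils. Thinning drew 1344 UMIs per barcode without replacement. Genes named by size reached 50 CPM in either library and 20 UMIs in all, and were left out if their level was under 0.2 of that in another gated class. Members and gene lists were chosen with earlier results of these data known. The calculations were tested on Poisson counts simulated for the summed barcodes, which do not hold the unevenness between barcodes seen here. Coordinates are GRCm38, and promoter windows RefSeq.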

Additional observations from a re-analysis of the deposited data

How the results depend on the processing

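With 1 library per label, precision rests on 200070 and 92419 UMIs, and no setting replaces a replicate. The neutrophil share stayed larger in WT under all 11 alternatives, none of which dropped the Csf1r limit. The 444 genes higher and 551 lower became 159 and 205 without the 18 barcodes holding other markers, 252 and 286 without barcodes over 10000 UMIs, 2308 and 3255 with no filter on low counts (10527 genes), and 148 and 199 with at least 50 UMIs (855 genes). The higher share of these calls lay between 39.6% and 46.8%. Of the list medians under the alternatives, 407 lay within the median counting interval of their members, 23 lay outside it and 2 that had been past 1.5-fold changed sign. Another 56 medians, all within 1.5-fold over the 97 barcodes, also changed sign, and 15 of the 24 lists did so somewhere, 9 of them without the 18. The MHC class I median was 0.19 without barcodes over 10000 UMIs. The MHC class II median was 1.03 without the 18. The hypoxia and glycolysis median was -0.04 without the 18, 0.043 without barcodes over 10000 UMIs, -0.10 with equal weight per cell and -0.22 after thinning. Of the log2 differences of named genes, 1132 lay within their counting interval, 218 outside it and 18 that had been past 1.5-fold changed sign. With the highest doublet scores removed, Gimap4 was at -0.61, Rgs1 at -0.33, Ccl3 at -0.11 and Ccl4 at -0.00103. Without the 18, Gimap4 was at -1.01, Rgs1 at -0.87, H2-K1 at -0.12, H2-D1 at -0.013, B2m at -0.15 and Ccl3 at -0.30. Without barcodes over 10000 UMIs, H2-K1 was at -0.048 and Ccl3 at -0.053. With every threshold per 10000 UMIs, Gpnmb was at 0.053 and Cd274 at -0.050. With 1 Csf1r UMI allowed, Thbs1 was at 0.15. With equal weight per cell Ccl3 was at -0.0676, and after thinning at -0.11, with H2-K1 at -0.45. Apart from fewer barcodes or genes in a setting, the cause was not tested. No paired analysis was possible because each label has 1 library and no replicate number.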
